A study of Homo sapiens with 24 samples.

Results

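The vascular endothelial growth factor (VEGF) ligands and their receptors were examined in 4 cancer cell lines as messenger RNA. Membership was set by gene symbol and covered 7 of the 23106 symbols in the count files, namely the ligands *VEGFA*, *VEGFB*, *VEGFC* and *PGF*, the receptor *FLT1* and the co-receptors *NRP1* and *NRP2*. Polyadenylated RNA was sequenced from A549 (lung), HCT-116 (colorectal), PC3 (prostate) and T47D (breast) cells. Each line was kept either in 21% oxygen (normoxia) or for 16 h in 0.5% oxygen (hypoxia), with 3 libraries in each of the 8 groups and 24 libraries in all. The labels name no added gene or drug in any group. A549 and PC3 cells grew in F12K, HCT-116 cells in McCoy's 5a and T47D cells in DMEM, all with added serum, so that outside the pair in F12K the line and its medium cannot be told apart. The labels number the replicates without saying whether they were separate cultures, and p values therefore measure the spread between these samples only.

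VEGF ligands are secreted dimers that act on receptor tyrosine kinases, mainly those of endothelial cells, to drive the growth and the permeability of blood and lymphatic vessels. *VEGFA* is the main angiogenic ligand and a textbook target of the hypoxia-inducible factors (HIFs). Of the receptor tyrosine kinases, VEGFB and placental growth factor (encoded by *PGF*) bind only FLT1. VEGFC acts through FLT4 and, once processed, through KDR. Neuropilins bind VEGF isoforms and class 3 semaphorins and have no kinase domain, and tumor cells of epithelial origin are known to make ligands and neuropilins while lacking most of the endothelial receptors.

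Library totals ranged from 22698584 to 62850747 counts with a median of 56109795, and the shallowest libraries were PC3 normoxia replicate 1 and HCT-116 hypoxia replicate 3. Levels are given as CPM, the usual count relative to library size, after TMM normalization. The floor of a library was set at 3 counts, equal to 0.0436 to 0.132 CPM, and covers counting error only. Of 5 genes known to respond to hypoxia, including *CA9* and *NDRG1*, all 5 were called higher in hypoxia in each line, the direction of the oxygen labels. The paper's list of shared hypoxia targets, drawn in part from these lines, holds *NDRG1*, *ANKRD37* and *ADM*. For these genes the call was not an independent check, and a call between groups does not check single libraries. The 5 general epithelial markers summed to between 2014 and 26002 CPM in every line. The 5 breast luminal markers summed to 1508 to 2362 CPM in T47D cells, whereas the lung alveolar markers stayed at 0.688 CPM or less in A549 cells, *KLK3* and *KLK2* were at 0 in PC3 cells, and *CDX2* but not *CDX1* or *LGR5* was present in HCT-116 cells. The 12 endothelial markers summed to between 4.89 and 38.9 CPM over all libraries, with *EMCN* at 0 in each line. When libraries were scaled to total counts instead, the median over all genes shifted to a log2 fold change of -0.13 (A549) and -0.12 (T47D). Of all calls in A549 cells, 33.9% were then higher (49.8% with TMM), and in T47D cells 32.1% (49.5% with TMM). No call for one of the 7 genes changed direction.

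A gene was called in hypoxia when its adjusted p (edgeR's quasi-likelihood test, Benjamini-Hochberg) was under 0.05 and its fold change over 1.2. Of the 7 genes, 6 had enough counts to be tested in A549, PC3 and T47D cells and 5 in HCT-116 cells. In A549 cells 5 were upregulated, against 17.6% of the 13897 genes tested that were called higher and 17.8% called lower. In HCT-116 cells 3 were upregulated, against 23.3% of 13614 genes higher and 27.0% lower. In PC3 cells 5 were upregulated, against 16.6% of 13466 genes higher and 15.7% lower. In T47D cells 3 were upregulated, against 6.55% of 14085 genes higher and 6.69% lower. None of the 7 was downregulated in any line. The groups did not overlap for 5 of the 6 tested in A549, in PC3 and in T47D cells, and for 3 of the 5 tested in HCT-116 cells. Of all genes tested, 47.9% in A549, 60.4% in HCT-116, 50.6% in PC3 and 32.3% in T47D cells were also without overlap. The HCT-116 count was near that share. The median log2 fold change of the tested members was 0.64 in A549, 0.93 in HCT-116, 0.65 in PC3 and 1.68 in T47D cells, beside medians between -0.03 and -0.01 over all genes tested.

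**Figure D1:**
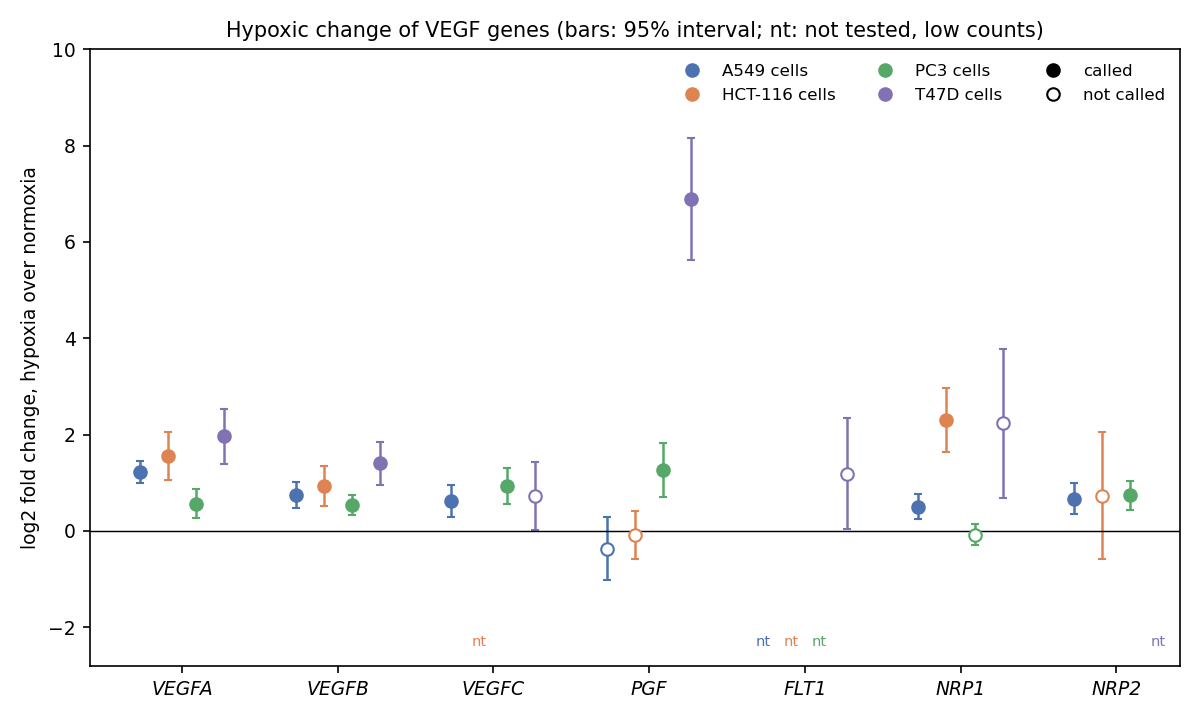
Log2 fold change of each VEGF gene in hypoxia over normoxia (vertical axis) in the 4 cell lines (colors), with 95% intervals, where filled points were called and nt marks genes with too few counts for a test. *VEGFA* and *VEGFB* were called in all 4 lines, and *PGF* in T47D cells had the highest value, 6.89.

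*VEGFA* was upregulated in all 4 lines, by the smallest amount in PC3 cells and the largest in T47D cells. The gene lies on chromosome 6 at bases 43737921 to 43754224 of GRCh37, on the forward strand, and its canonical transcript has 8 exons. In A549 cells the normoxic libraries held 39.3, 43.3 and 42.1 CPM and the hypoxic libraries 103, 94.3 and 96.1 CPM. The 2 states were far apart and the replicates close together, and the log2 fold change was 1.23 (SE 0.10, adjusted p = 9.17e-06). In HCT-116 cells the levels were 46.7, 50.7 and 40.7 CPM in normoxia and 110, 195 and 138 CPM in hypoxia. Hypoxic replicates were more spread there, replicate 2 being the highest of all 24 libraries, and the log2 fold change was 1.55 (SE 0.23, adjusted p = 2.15e-04). PC3 cells started from the highest normoxic level, with 79.7, 72.2 and 77.0 CPM, and reached 143, 104 and 103 CPM in hypoxia. The states did not overlap, and the log2 fold change of 0.56 (SE 0.13, adjusted p = 0.0128) was the smallest of the 4 lines. It was not called in a single fit of all 24 libraries (adjusted p = 0.0653). T47D cells started from the lowest level, 28.2, 37.6 and 23.9 CPM, and reached 137, 152 and 83.3 CPM. Hypoxia replicate 3 was the lowest of its group but still above every normoxic library, and the log2 fold change was 1.96 (SE 0.26, adjusted p = 6.42e-04). The *VEGFA* increase ranked 435 of 13897 genes in A549, 376 of 13614 in HCT-116, 1442 of 13466 in PC3 and 231 of 14085 in T47D cells. In bulk RNA, fewer cells expressing a gene and less RNA per cell cannot be told apart.

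**Figure D2:**
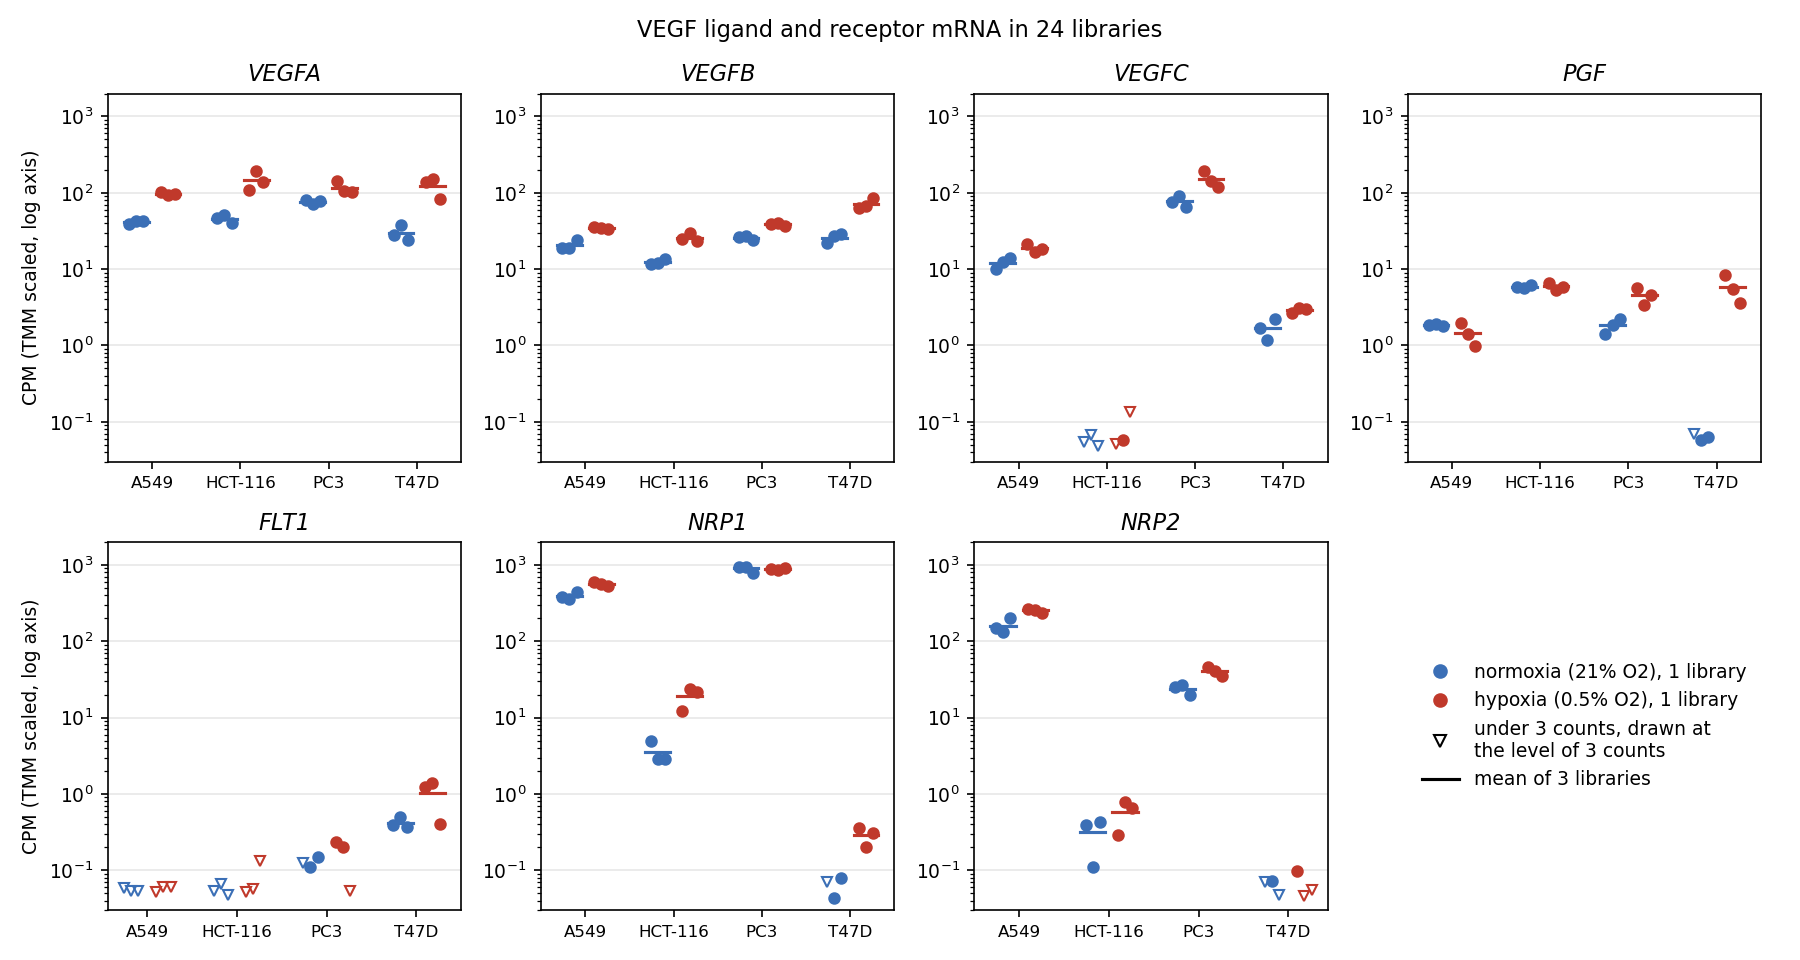
Level of each VEGF gene in the 24 libraries (log axis, CPM after TMM scaling) by cell line and oxygen state, with 1 point per library and lines for the mean of 3 libraries, and with open triangles for libraries under 3 counts, drawn at the level of 3 counts. *VEGFA* and *VEGFB* points of hypoxia sit above those of normoxia in every line, whereas the neuropilins range from under 0.1 CPM in normoxic T47D cells to over 100 CPM in A549 cells.

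*VEGFB*, whose product binds FLT1 and neuropilin-1 and is better known for effects on lipid uptake and cell survival than on vessel growth, was also upregulated in all 4 lines. It lies on chromosome 11 at bases 64002056 to 64006736 of GRCh37, on the forward strand, with 7 exons. Its level rose from 20.6 ± 2.86 to 34.7 ± 1.001 CPM in A549 cells (SD, n = 3), a log2 fold change of 0.74 (SE 0.12, adjusted p = 9.33e-04). In HCT-116 cells it rose from 12.4 ± 1.07 to 25.8 ± 3.31 CPM, a log2 fold change of 0.93 (SE 0.19, adjusted p = 0.00139). In PC3 cells the change was again the smallest, from 25.8 ± 1.68 to 38.7 ± 1.69 CPM (log2 fold change 0.53, SE 0.09, adjusted p = 0.00405). T47D cells had the largest change, from 22.2, 26.8 and 28.5 CPM in normoxia to 62.8, 67.8 and 85.0 CPM in hypoxia (log2 fold change 1.40, SE 0.20, adjusted p = 0.00121). No *VEGFB* library of one state overlapped the other state in any line. Hypoxia replicate 3 of T47D cells, the lowest of its group for *VEGFA*, was the highest for *VEGFB*. The log2 fold change of *VEGFB* was smaller than that of *VEGFA* in each of the 4 lines, a difference between genes that was not tested.

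The bases before the start sites of some members are shown because the core recognition motif of HIF is short and can be marked in them. RefSeq windows (GRCh38.p14, a later build than that of the counts) matched 5 of the 7 members, *VEGFB*, *VEGFC*, *PGF*, *FLT1* and *NRP2*, with a pair of starts for *PGF*. The 250 bases before each start were searched on both strands for ACGTG and for GCGTG. Of all 35116 windows of this length in the table, 43.2% held either motif, 18.5% held ACGTG and 32.2% held GCGTG. Of the 6 windows of members, 4 held GCGTG and none held ACGTG. The match in *VEGFB* was on the gene's strand, 61 to 57 bases before the start, in *VEGFC* on the opposite strand, 59 to 55 bases before it, in *FLT1* on the opposite strand, 206 to 202 bases before it, and at the second *PGF* start on the opposite strand, 162 to 158 bases before it. The window at the first *PGF* start and that of *NRP2* held neither. Capitals mark the match in 3 of these windows, printed 5′ to 3′ on the gene's strand, where CACGC is GCGTG on the opposite strand. The *PGF* window shown is that of the first start, without a match, and the second start has the match given above.
VEGFB, chr11:64234334-64234583, forward strand: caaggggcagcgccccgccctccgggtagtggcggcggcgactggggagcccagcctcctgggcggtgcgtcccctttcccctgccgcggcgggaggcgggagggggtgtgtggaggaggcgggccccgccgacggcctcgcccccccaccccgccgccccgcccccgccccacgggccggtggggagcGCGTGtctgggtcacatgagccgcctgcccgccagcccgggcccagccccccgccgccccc
VEGFC, chr4:176792923-176793172, reverse strand: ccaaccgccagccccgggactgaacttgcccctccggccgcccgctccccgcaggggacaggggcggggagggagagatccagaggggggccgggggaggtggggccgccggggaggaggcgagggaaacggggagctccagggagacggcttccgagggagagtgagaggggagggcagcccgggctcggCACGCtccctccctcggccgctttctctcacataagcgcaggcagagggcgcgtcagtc
FLT1, chr13:28495129-28495378, reverse strand: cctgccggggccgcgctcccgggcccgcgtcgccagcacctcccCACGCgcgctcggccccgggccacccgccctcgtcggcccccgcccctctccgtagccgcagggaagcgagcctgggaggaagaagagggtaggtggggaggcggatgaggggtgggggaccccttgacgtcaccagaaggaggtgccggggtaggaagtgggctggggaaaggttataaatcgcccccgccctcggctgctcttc
PGF, first start, chr14:74955765-74956014, reverse strand: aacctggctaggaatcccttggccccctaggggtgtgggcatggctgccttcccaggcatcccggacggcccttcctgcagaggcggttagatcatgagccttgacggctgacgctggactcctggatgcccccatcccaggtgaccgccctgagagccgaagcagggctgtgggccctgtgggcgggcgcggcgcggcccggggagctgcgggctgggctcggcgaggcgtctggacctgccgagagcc

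*VEGFC*, a ligand known for driving lymphatic vessel growth, was expressed at a level that depended on the line far more than on oxygen. It lies on chromosome 4 at bases 177604689 to 177714076 of GRCh37, on the reverse strand, with 7 exons. PC3 cells had the most, with 76.3, 89.8 and 65.1 CPM in normoxia and 192, 144 and 120 CPM in hypoxia. The states did not overlap in PC3 cells, and *VEGFC* was upregulated with a log2 fold change of 0.93 (SE 0.17, adjusted p = 0.00468). In A549 cells it was upregulated from 12.2 ± 2.07 to 18.7 ± 2.30 CPM (SD, n = 3), a log2 fold change of 0.61 (SE 0.15, adjusted p = 0.00916) that was not called in a single fit of all 24 libraries (adjusted p = 0.0561). In T47D cells the libraries held 1.67, 1.19 and 2.20 CPM in normoxia and 2.688, 3.113 and 2.999 CPM in hypoxia. Those states did not overlap, but the log2 fold change of 0.72 (SE 0.33, adjusted p = 0.157) was not called. The single fit, which pools the spread of all lines, called it (0.80, adjusted p = 0.0197). HCT-116 cells had no *VEGFC* count in any normoxic library and 3 counts in 1 hypoxic library, at the floor of detection, so that no change could be tested there.

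*PGF* was barely detected in normoxic T47D cells and was strongly upregulated there in hypoxia, whereas it did not pass the test in A549 or HCT-116 cells. It lies on chromosome 14 at bases 75408537 to 75422329 of GRCh37, on the reverse strand, with 7 exons. In T47D cells the normoxic libraries held 0, 4 and 4 counts and the hypoxic libraries 522, 350 and 198 counts, or 8.45, 5.45 and 3.62 CPM. Every hypoxic library was far above every normoxic one, and replicate 3 was again the lowest of its group. The summed counts, 1070 against 8, gave a ratio of 129 per library size, with a 95% interval for counting error (exact binomial) of 65.4 to 300.4. The fitted log2 fold change of 6.89 (SE 0.59, adjusted p = 1.68e-05) ranked 4 of 14085 genes by size. Hypoxic T47D cells thereby reached 5.84 ± 2.44 CPM (SD, n = 3), beside 5.95 ± 0.62 CPM in hypoxic HCT-116 cells. In PC3 cells *PGF* rose from 1.41, 1.86 and 2.21 CPM to 5.69, 3.40 and 4.62 CPM, without overlap and with a log2 fold change of 1.26 (SE 0.25, adjusted p = 0.00682). A549 cells held 1.87 ± 0.06 CPM in normoxia and 1.45 ± 0.49 CPM in hypoxia, with overlapping libraries and a log2 fold change of -0.37 (95% interval -1.02 to 0.29, adjusted p = 0.367). In HCT-116 cells the level was 5.84 ± 0.26 CPM in normoxia, and the log2 fold change was -0.09 (95% interval -0.59 to 0.41, adjusted p = 0.760).

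*FLT1*, which encodes the receptor shared by VEGFA, VEGFB and PGF and also gives a soluble form that traps these ligands, was at or near the limit of detection in 3 of the 4 lines. It lies on chromosome 13 at bases 28874483 to 29069282 of GRCh37, on the reverse strand, and its canonical transcript has 30 exons. No count was seen in HCT-116 cells, 1 count in all 6 A549 libraries together, and 2 to 10 counts per library in PC3 cells. Only T47D cells had enough for a test, with 0.395, 0.494 and 0.366 CPM in normoxia and 1.25, 1.40 and 0.402 CPM in hypoxia. Hypoxia replicates 1 and 2 were above all normoxic libraries and replicate 3 was among them, and the log2 fold change of 1.19 (SE 0.53, adjusted p = 0.149) was not called. Without hypoxia replicate 3 the log2 fold change was 1.57 and was called (adjusted p = 0.0304).

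Of the other receptors of the family, *KDR* was low in every line, whereas *FLT4* was present in T47D and A549 cells. *KDR*, the main signaling receptor of VEGFA, was at 0 in A549 cells and reached a mean of 0.741 CPM at most, in normoxic PC3 cells, with no call in either line where it was tested (log2 fold change 0.83, adjusted p = 0.404 in HCT-116 cells and -0.07, adjusted p = 0.900 in PC3 cells). *FLT4*, the lymphatic receptor of VEGFC, was present in T47D cells at 26.9 ± 5.74 CPM in normoxia and 26.3 ± 6.43 CPM in hypoxia (log2 fold change -0.12, 95% interval -0.62 to 0.38, adjusted p = 0.755). In A549 cells *FLT4* held 5.49 ± 1.25 and 5.59 ± 0.84 CPM, also without a call (0.02, adjusted p = 0.945), and in HCT-116 and PC3 cells it had at most 7 counts in a library. *FIGF*, the older symbol of the ligand *VEGFD* under which the files list it, was downregulated in the 2 lines that expressed it. In A549 cells it had 16 to 35 counts in normoxia and 1 to 11 in hypoxia, a log2 fold change of -1.96 (SE 0.67, adjusted p = 0.0393). In HCT-116 cells it had 24 to 40 and 4 to 9 counts, a log2 fold change of -1.77 (SE 0.65, adjusted p = 0.0356). The *FIGF* call in A549 cells was lost without any of 4 libraries, hypoxia replicates 2 and 3 and normoxia replicates 1 and 2, most so without the last (-1.54, adjusted p = 0.186). That in HCT-116 cells was lost without any library except hypoxia replicate 3, most so without hypoxia replicate 2 (-1.31, adjusted p = 0.145). Both were also lost without the filter on low counts (adjusted p = 0.0580 and 0.0636) and in the single fit of all 24 libraries (adjusted p = 0.0859 and 0.0807). *FIGF* was at 0 in all PC3 and T47D libraries.

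*NRP1*, a co-receptor for VEGFA isoforms, for VEGFB and PGF and for semaphorin 3A, was the most abundant of the 7 genes in A549 and PC3 cells and nearly absent from T47D cells. It lies on chromosome 10 at bases 33466420 to 33625190 of GRCh37, on the reverse strand, with 17 exons. HCT-116 cells showed the clearest change, from 4.91, 2.88 and 2.87 CPM in normoxia to 12.03, 23.96 and 21.79 CPM in hypoxia. The lowest hypoxic library was above the highest normoxic one, and the log2 fold change of 2.30 (SE 0.31, adjusted p = 1.56e-04) ranked 101 of 13614 genes. In A549 cells *NRP1* was upregulated from 384, 360 and 444 CPM to 602, 565 and 525 CPM, with a log2 fold change of 0.50 (SE 0.12, adjusted p = 0.00598). This call was lost in the single fit of all 24 libraries (adjusted p = 0.0948). PC3 cells kept the highest level, 899 ± 92.6 CPM in normoxia and 883 ± 29.3 CPM in hypoxia (SD, n = 3). The states overlapped there, and the log2 fold change was -0.08 with a 95% interval of -0.29 to 0.14 (adjusted p = 0.561). In T47D cells there were 2, 3 and 5 counts in normoxia and 22, 13 and 17 counts in hypoxia, without overlap. The log2 fold change of 2.23 (SE 0.71, adjusted p = 0.0554) was not called, although the single fit of all libraries called it (2.29, adjusted p = 0.00179).

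*NRP2*, the co-receptor of VEGFC and of semaphorins 3F and 3C, was upregulated by similar amounts in the 2 lines where it was abundant. It lies on chromosome 2 at bases 206546714 to 206662857 of GRCh37, on the forward strand, with 17 exons. A549 cells had 149, 131 and 200 CPM in normoxia and 267, 261 and 237 CPM in hypoxia. No library overlapped, and the log2 fold change was 0.67 (SE 0.15, adjusted p = 0.00448). In PC3 cells the level rose from 23.7 ± 3.62 to 40.9 ± 5.84 CPM (SD, n = 3), a log2 fold change of 0.73 (SE 0.13, adjusted p = 0.00494). Neither call held in the single fit of all 24 libraries (adjusted p = 0.0738 in A549 and 0.0629 in PC3 cells). HCT-116 cells had 5 to 27 counts in normoxia and 15 to 41 in hypoxia, and the log2 fold change of 0.73 (95% interval -0.58 to 2.04, adjusted p = 0.335) was not called. T47D libraries held at most 6 counts. For *VEGFA*, *VEGFC*, *NRP1* and *NRP2* the annotation places an antisense transcript over part of the gene, none of them listed in the count files. The library kit keeps strand but the strand setting of the counting is not given in the sources used here, and reads of the antisense partner could not be separated if strand was ignored.

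Whether hypoxia acted differently between lines was tested for each gene as the interaction of line and oxygen state in a fit of all 24 libraries. Of the 7 genes, 4 had an adjusted p under 0.05, against 18.3% of 16089 genes tested. These were *VEGFA* (adjusted p = 0.00808), *VEGFB* (adjusted p = 0.0157), *PGF* (adjusted p = 7.51e-08) and *NRP1* (adjusted p = 2.90e-05). *VEGFC* (adjusted p = 0.433), *FLT1* (adjusted p = 0.793) and *NRP2* (adjusted p = 0.999) did not pass, each with lines at or near 0 counts in the test. The *VEGFA* result was lost when all libraries of replicate 1 or of replicate 2 were left out (adjusted p = 0.0753 and 0.136). The *VEGFB* result was lost without replicate 1, 2 or 3 (adjusted p = 0.144, 0.260 and 0.0518).

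In pairs of lines, 9 of 42 differences of the hypoxic change were called (adjusted p under 0.05 and over 1.2-fold). The log2 fold change of *VEGFA* in PC3 cells was 1.07 below that in HCT-116 cells (difference -1.07, SE 0.29, adjusted p = 0.0177), in a pair where 14.9% of all genes were called. In T47D cells it was 1.43 above that in PC3 cells (SE 0.29, adjusted p = 0.00689), in a pair where 2.25% of all genes were called. *VEGFB* differed in the same direction between T47D and PC3 cells (0.89, SE 0.21, adjusted p = 0.0185). The change of *PGF* in T47D cells exceeded that in A549 cells by 7.31 (SE 0.58), that in HCT-116 cells by 6.92 (SE 0.58) and that in PC3 cells by 5.63 (SE 0.58), the 3 adjusted p values being 5.62e-08, 1.34e-07 and 1.81e-06. *NRP1* changed more in HCT-116 than in A549 cells (1.92, SE 0.30, adjusted p = 4.46e-04) and less in PC3 than in HCT-116 cells (-2.46, SE 0.30, adjusted p = 2.71e-05). It also changed more in T47D than in PC3 cells (2.31, SE 0.54, adjusted p = 0.0189). That difference rested on 2 to 5 counts per normoxic and 13 to 22 per hypoxic T47D library, and the change was not called within T47D cells. The share of all genes called was 16.7% for HCT-116 against A549 cells, 2.11% for T47D against A549 cells and 9.07% for T47D against HCT-116 cells. Between PC3 and A549 cells, which share a medium, 0.758% of all genes were called and none of the 7. For *PGF* the difference of 1.68 in that pair (95% interval 0.73 to 2.63, adjusted p = 0.0958) did not pass.

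Levels in normoxia were compared between lines, and 36 of 42 contrasts of a VEGF gene and a pair of lines were called. Most genes differ between these lines, since 64.9% of 15616 genes were called between HCT-116 and A549, 60.0% between PC3 and A549, 66.6% between T47D and A549, 65.6% between PC3 and HCT-116, 68.5% between T47D and HCT-116 and 67.8% between T47D and PC3 cells. The order of *VEGFA* was PC3 (76.3 ± 3.79 CPM), HCT-116 (46.0 ± 5.03), A549 (41.6 ± 2.05) and T47D (29.9 ± 6.97), all SD with n = 3. HCT-116 and A549 cells were not told apart (log2 difference 0.15, 95% interval -0.20 to 0.50, adjusted p = 0.449). The *VEGFA* difference of T47D from A549 cells (-0.48, adjusted p = 0.0180) was lost without replicate 1 (adjusted p = 0.115), without replicate 3 (adjusted p = 0.138) and with scaling to total counts (-0.22, adjusted p = 0.295). That from HCT-116 cells (-0.62, adjusted p = 0.00325) was lost without replicate 1 (adjusted p = 0.0581) and with scaling to total counts (-0.37, adjusted p = 0.0810). For *VEGFB*, T47D, PC3 and A549 cells lay between 20.6 and 25.8 CPM with no call among the 3 pairs, and HCT-116 cells lay below each of them. With scaling to total counts A549 cells were called below PC3 (adjusted p = 0.0433) and T47D cells (adjusted p = 0.00656), and without replicate 3 below PC3 cells (adjusted p = 0.0363). The order of *VEGFC* was PC3, A549, T47D and HCT-116 cells, and each neighbor differed.

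The co-receptors also differed widely between the lines. *NRP1* went from 899 CPM in PC3 to 396 ± 43.2 CPM in A549, 3.55 ± 1.17 CPM in HCT-116 and 0.0565 ± 0.0201 CPM in T47D cells, and each step was called. *NRP2* followed another order, with 160 ± 35.4 CPM in A549, 23.7 CPM in PC3, 0.313 ± 0.175 CPM in HCT-116 and 0.0319 ± 0.0371 CPM in T47D cells, again with each step called. Normoxic *PGF* was highest in HCT-116 cells, A549 and PC3 cells were not told apart (log2 difference -0.03, 95% interval -0.72 to 0.67, adjusted p = 1), and T47D cells were lowest. *FLT1* was above PC3 cells in T47D cells (log2 difference 1.83, SE 0.65, adjusted p = 0.0244). That call rested on few counts and was lost without replicate 1 (adjusted p = 0.114) or replicate 2 (adjusted p = 0.154), with DESeq2 (adjusted p = 0.118), with no filter (adjusted p = 0.0746) and with the replicate block (adjusted p = 0.0660).

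Genes can be compared with each other only per transcript length, here as CPM per kb of the canonical GENCODE transcript (3609 bases for *VEGFA*, 1805 for *VEGFB*, 2262 for *VEGFC* and 1740 for *PGF*). On this scale *VEGFA* made up 39.3 ± 2.71% of the summed level of the 4 ligands in normoxic A549 cells and 48.9 ± 0.51% in hypoxic ones (SD, n = 3). In HCT-116 cells its share was 55.4 ± 4.42% in normoxia and 69.1 ± 5.02% in hypoxia, and the libraries of the 2 states did not overlap in either of these lines. In T47D cells *VEGFB* had the larger mean share, 61.3 ± 5.33% in normoxia and 50.9 ± 11.3% in hypoxia. The mean share of *VEGFA* there was 35.4 ± 6.28% and 43.2 ± 10.3%. The order differed between the hypoxic T47D libraries, with *VEGFA* larger in replicates 1 and 2 and *VEGFB* larger in replicate 3. Over these libraries *VEGFB* ranged from 44.16% to 64.01% and *VEGFA* from 31.36% to 49.96%. PC3 cells differed in kind, since *VEGFC* held 48.1 ± 3.94% in normoxia and 54.0 ± 3.17% in hypoxia and *VEGFA* 30.1 ± 3.41% and 26.2 ± 1.34%, with libraries that overlapped. *PGF* stayed under 16% in every library. These shares depend on the length chosen. Per kb of all annotated exons (14431 bases for *VEGFA*), *VEGFA* fell to 15.8% in normoxic A549 and 30.4% in normoxic HCT-116 cells and *VEGFB* came first in A549, HCT-116 and T47D cells, while *VEGFC* still came first in PC3 cells (61.0%). Under either length the mean *VEGFA* share was higher in hypoxia in A549, HCT-116 and T47D cells and lower in PC3 cells. Of the neuropilins, *NRP1* made up 74.7 ± 2.04% of the summed level per kb in normoxic A549 cells, 93.0 ± 4.08% in HCT-116 cells and 97.8 ± 0.12% in PC3 cells. With hypoxia, the *NRP1* share was 72.3 ± 0.41% in A549 cells, 97.6 ± 0.35% in HCT-116 cells and 96.2 ± 0.53% in PC3 cells.

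**Figure D3:**
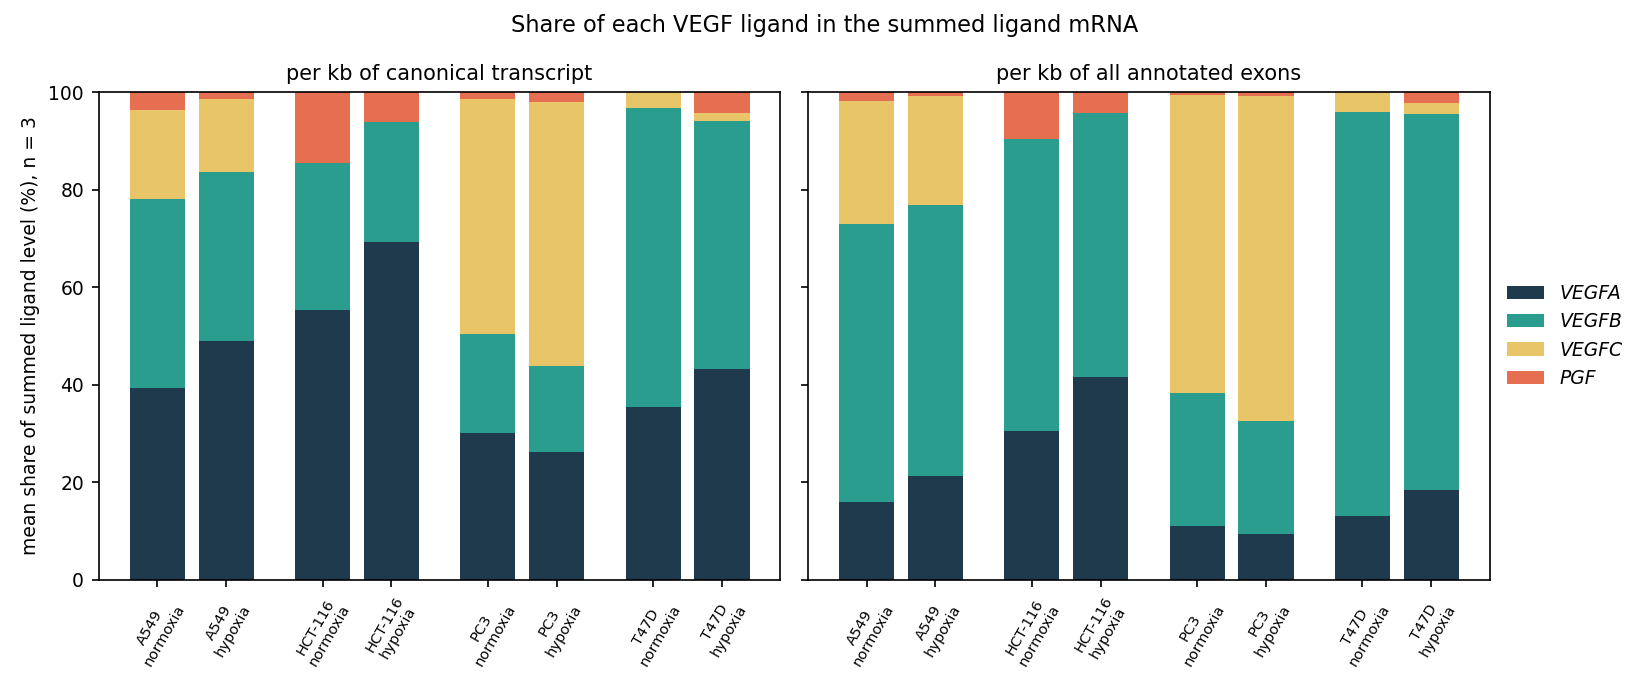
Mean share of each ligand in the summed VEGF ligand level (vertical axis, percent, n = 3 libraries) by line and oxygen state, per kb of canonical transcript (left) and per kb of all annotated exons (right). *VEGFC* holds the largest share in PC3 cells in both panels, whereas the order of *VEGFA* and *VEGFB* in A549 and HCT-116 cells depends on the length.

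Genes with the pattern most like that of *VEGFA* were named by Pearson's r of log2 CPM over the 24 libraries, among 11271 genes with a mean log2 CPM over 1. They were *ANKZF1* (r = 0.96), *RIMKLA* (0.94), *LOC143666* (0.93), *INSIG2* (0.92) and *GYS1* (0.92). All points share their libraries and the 4 lines, and r is a description without a test. Nearness by the log2 fold changes in the 4 lines was taken among 9789 genes tested in all lines with a mean log2 CPM over 1 in each. The nearest were *WDR54* (Euclidean distance 0.22), *ANKZF1* (0.29), *PLEKHA2* (0.33), *ERO1L* (0.37) and *PKM* (0.37). *ANKZF1*, which appears in both lists, had log2 fold changes of 1.07, 1.47, 0.63 and 1.75 in A549, HCT-116, PC3 and T47D cells, and *WDR54* had 1.07, 1.41, 0.54 and 1.94.

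Genes that act with the VEGF genes were counted in fixed lists, and each count is to be set beside the share of all genes called in that line. Called higher were 17.6% in A549, 23.3% in HCT-116, 16.6% in PC3 and 6.55% in T47D cells. The shares called lower were 17.8%, 27.0%, 15.7% and 6.69% in the same order. Of the 13 semaphorins and plexins that share the neuropilins and the adaptor *GIPC1*, 12 were tested in each line, and 3, 3, 5 and 1 were called higher in A549, HCT-116, PC3 and T47D cells and 1, 0, 1 and 0 lower. In A549, HCT-116 and T47D cells the counts called higher were near the share of all genes. *SEMA3G*, which encodes a class 3 semaphorin, rose in T47D cells (log2 fold change 1.31, SE 0.35, adjusted p = 0.0303), and *PLXND1*, a semaphorin receptor, rose in HCT-116 cells (0.90, SE 0.21, adjusted p = 0.00295). Of 11 genes for the processing or matrix binding of VEGF, 4 of 10 tested were higher in A549, 2 of 7 in HCT-116, 3 of 9 in PC3 and 0 of 7 in T47D cells, with 1 lower in A549 and 1 in PC3 cells. The counts called higher in HCT-116 and T47D cells were again near the share of all genes. Among them *HSPG2*, which encodes the heparan sulfate proteoglycan perlecan, rose in HCT-116 cells (1.61, SE 0.25, adjusted p = 2.69e-04). *PCSK5*, one of the convertases that cleave pro-VEGFC, rose in A549 cells from 4.77 ± 0.51 to 11.4 ± 1.21 CPM (1.25, SE 0.16, adjusted p = 2.42e-04).

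Of 16 genes for signaling from VEGF receptors, 16 were tested in each line except PC3, with 15, and 5, 8, 9 and 1 were called higher in A549, HCT-116, PC3 and T47D cells and 1, 1, 1 and 0 lower. The share of all genes called higher was 17.6%, 23.3%, 16.6% and 6.55%, and 1 of 16 in T47D cells is near it. The share called lower was 17.8%, 27.0%, 15.7% and 6.69%. *SHB* and *NCK1*, a pair of adaptor genes, moved in opposite directions in HCT-116 cells, *SHB* by 1.84 (SE 0.26, adjusted p = 1.95e-04) and *NCK1* by -1.59 (SE 0.23, adjusted p = 2.07e-04). Of 7 genes whose proteins bind the *VEGFA* messenger RNA, all 7 were called higher in HCT-116 cells, where 23.3% of genes were, and 2, 1 and 1 in A549, PC3 and T47D cells. They include *ZFP36* (1.56, SE 0.38, adjusted p = 0.00432) and *ZFP36L1* (1.19, SE 0.26, adjusted p = 0.00218), which are known to promote decay of AU-rich messenger RNAs.

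Among 14 other angiogenic factors, 4 of 13 tested were higher in A549, 6 of 11 in HCT-116, 5 of 10 in PC3 and 5 of 9 in T47D cells. Lower were 1, 1, 2 and 0. Of all genes in these lines, 17.6%, 23.3%, 16.6% and 6.55% were called higher and 17.8%, 27.0%, 15.7% and 6.69% lower. *ANGPTL4* in HCT-116 cells rose from 4.14 ± 2.13 to 318 ± 259 CPM (SD, n = 3; log2 fold change 6.14, SE 0.59, adjusted p = 3.26e-05). *ADM*, which encodes the vasodilator adrenomedullin, rose there from 47.2 ± 6.13 to 338 ± 147 CPM (2.72, SE 0.28, adjusted p = 4.88e-05). Of 11 genes listed as angiogenesis inhibitors, 5 of 11 tested were higher in A549, 3 of 9 in HCT-116, 4 of 7 in PC3 and 4 of 11 in T47D cells, and 0, 1, 1 and 0 were lower, beside the same shares of all genes. *COL18A1*, the source of endostatin, rose in HCT-116 cells (1.15, SE 0.20, adjusted p = 6.11e-04). *VASH2* fell there by 1.12 on the log2 scale (SE 0.30, adjusted p = 0.00810), and its product is known to promote rather than inhibit angiogenesis. The median log2 fold change of each of these lists, from -0.02 to 0.78 over lists and lines, stood beside medians near 0 for all genes.

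**Figure D4:**
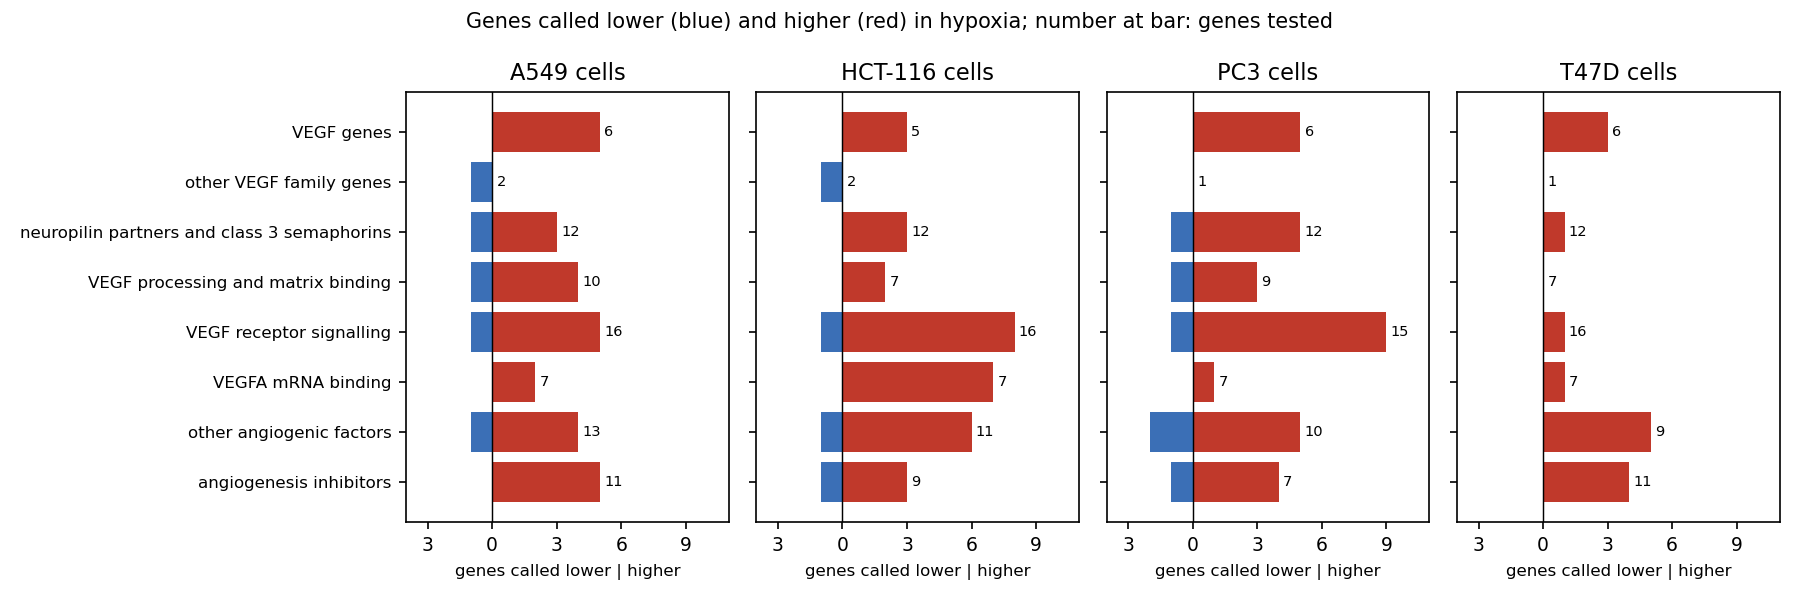
Number of genes called higher (red, to the right) or lower (blue, to the left) in hypoxia in each list and line, with the number of genes tested at the bar. All 7 genes for *VEGFA* messenger RNA binding were called higher in HCT-116 cells, and 5 of the 6 VEGF genes tested in A549 and in PC3 cells.

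Markers of other cell types were mostly at low levels. The 12 endothelial markers summed to 26.4 to 37.6 CPM in normoxic and 27.4 to 38.9 CPM in hypoxic T47D cells, of which *FLT4* made up the largest part, and to 10.5 to 13.7 and 21.0 to 23.9 CPM in normoxic and hypoxic PC3 cells. Of 2, 3, 4 and 3 endothelial markers tested in A549, HCT-116, PC3 and T47D cells, 0, 1, 2 and 1 were called higher. The share of all genes called higher was 17.6%, 23.3%, 16.6% and 6.55%. The named ones were *ROBO4* in PC3 (0.87, adjusted p = 0.00323) and *ESAM* in T47D cells (1.09, adjusted p = 0.0223). The 6 fibroblast markers summed to between 11.1 and 55.4 CPM and the 5 blood cell markers to between 0.929 and 44.9 CPM, with *HBB* at 0 in all lines. *COL1A1* rose in A549 cells (0.80, adjusted p = 0.00483), where *COL3A1*, at under 1 CPM and named after its values were seen, fell (-2.16, adjusted p = 0.00870). *CD68*, also a lysosomal gene of other cells, rose in HCT-116 cells (2.22, adjusted p = 1.67e-04). In HCT-116 cells, where 23.3% of all genes were called higher, 4 of the 5 epithelial markers rose as well. Among them were *CDH1* (2.15, adjusted p = 1.05e-04) and *KRT19* (1.61, adjusted p = 6.48e-04). The other, *EPCAM*, had a negative log2 fold change that was not called (-0.45, adjusted p = 0.0740). The part of these markers in the changes of the VEGF genes was not tested.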

How the data were processed

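RNA-seq counts of 24 libraries were used. Per the labels and the methods, the authors made the deposited counts from poly-A RNA (directional kit) with Trim Galore 0.3.3, HISAT2 2.05 on GRCh37, Picard 2.0.1 and HTSeq 0.5.4p3, and keeping only fragments with a unique position lowers genes with near-identical copies. Groups came from the sample titles. The counts were tested here in each line with edgeR 4.0.16 in R 4.3.3 (filterByExpr, TMM, quasi-likelihood F test, Benjamini-Hochberg over all genes tested). Log2 levels used a prior count of 2. Lengths and positions came from GENCODE on GRCh37, where 19893 symbols (86.1%) had a length, 1468 of them through an older symbol. Alternatives were DESeq2 1.42.0, RLE or total-count scaling, a mean-count filter of 50 or none, a replicate block, stricter thresholds (1.5-fold or an adjusted p under 0.01), a fit of all libraries and omitted libraries. The tests were checked on simulated counts. The members, gene lists and tests were chosen with earlier results of these data known. Genes named from lists are the 2 with the largest absolute log2 fold change among calls without overlap and with a mean log2 CPM over 1. *KDR*, *FLT4* and *FIGF* were always named. For likeness, 5 genes were named for *VEGFA* and 2 for each other member. The exon-union length was chosen after seeing the data.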

Additional observations from a re-analysis of the deposited data

Results flagged for a closer look

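The hypoxic change differed between the 4 lines for 4 of the 7 VEGF genes by the interaction test of edgeR. The adjusted p was 0.00808 for *VEGFA*, whose log2 fold change went from 0.56 in PC3 to 1.96 in T47D cells. It was 0.0157 for *VEGFB*, with 0.53 in PC3 and 1.40 in T47D cells. It was 7.51e-08 for *PGF*, with -0.37 in A549 and 6.89 in T47D cells, and 2.90e-05 for *NRP1*, with -0.08 in PC3 and 2.30 in HCT-116 cells. Over 9 alternatives the adjusted p of *PGF* reached at most 8.42e-04 and that of *NRP1* at most 0.0309, while *VEGFA* reached 0.136 and *VEGFB* 0.260. Line and culture medium cannot be told apart for pairs in different media.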

How the results depend on the processing

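No result changed direction where it was called. The number of VEGF genes called higher was 5, 3, 5 and 3 in A549, HCT-116, PC3 and T47D cells. It was 2, 3 and 5 in A549, PC3 and T47D cells in one fit of all 24 libraries and 3 in PC3 cells with a fold change over 1.5. *VEGFA* in PC3 cells (0.56) was not called at a 1.5-fold minimum (0.565), at an adjusted p under 0.01 (0.565) or in the single fit (0.617). The VEGF genes past the interaction test numbered 4, and 2 to 3 without a replicate. Over all genes the calls numbered 4928 in A549 cells, 2542 at a 1.5-fold minimum, 2734 at an adjusted p under 0.01, 2609 in the single fit and 3109 to 5331 without a library (fewest without normoxia replicate 2). In PC3 cells they numbered 4346, 1911, 1549, 1292 and 2183 to 5361 (fewest without hypoxia replicate 1). In T47D cells they numbered 1864, 416 with an adjusted p under 0.01, 3830 in the single fit and 199 to 3305 without a library (fewest without normoxia replicate 1, most without hypoxia replicate 3). The interaction calls over all genes numbered 2940, 4463 with DESeq2 and 165 to 2478 without a replicate (165 without replicate 2, 636 without replicate 1). In the fit with a replicate block, the VEGF gene calls stayed at 5, 3, 5 and 3, and all calls numbered 5002, 7684, 4587 and 2766. The block ended 1 call for a VEGF gene, the normoxic *FLT1* difference of T47D from PC3 cells (1.85, adjusted p = 0.0660). Same-numbered libraries correlated between 0.0724 and 0.322 in their deviations, not all over 0.1, and each correlated best with its own number except in A549 replicate 2. The cause of these changes was not tested. Among single genes, 36 values lost their call and 6 gained one. Depth limits *FLT1*, *NRP2* and *NRP1* in T47D and *VEGFC* in HCT-116 cells, where counts were near the floor.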

Other observations

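For the HIF subunit genes, which encode the transcription factors that respond to low oxygen, no difference between lines was tested. Of 5 genes, 4 were tested in each line. In A549, HCT-116, PC3 and T47D cells 2, 3, 1 and 0 were called higher, beside 17.6%, 23.3%, 16.6% and 6.55% of all genes. Lower were 1, 0, 0 and 1, beside 17.8%, 27.0%, 15.7% and 6.69% of all genes. The counts called higher in PC3 and T47D cells were near the share of all genes. *HIF1A* was downregulated in A549 cells from 373 ± 38.2 to 146 ± 11.2 CPM (SD, n = 3; log2 fold change -1.36, SE 0.12, adjusted p = 9.69e-06). *EPAS1*, which encodes HIF-2α, was upregulated in HCT-116 cells from 13.4 ± 0.74 to 60.3 ± 23.0 CPM (2.05, SE 0.25, adjusted p = 1.08e-04).

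For the other VEGF genes, the genes with the highest Pearson's r over the 24 libraries were as follows. *NRP1* was nearest to *TGM2* and *PHKA1* (r = 0.99 for both), *NRP2* to *VIM* (0.99) and *GRAMD1B* (0.98), and *VEGFC* to *GPR39* and *FMN2* (0.98 for both). *VEGFB* was nearest to *SPPL3* (0.95) and *PCIF1* (0.94), *FLT1* to *MUC1* and *TNFSF13* (0.95 for both), and *PGF* to *C1orf21* (0.87) and *TMEM123* (0.82). These values describe libraries that share 4 lines and carry no test. *FLT1* was at or near the limit of detection in A549, HCT-116 and PC3 cells, where the prior count sets much of its log2 level.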
